A study of Mus musculus with 8 samples.

Results

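Transcripts of RNA helicases and RNA-binding proteins were followed in whole mouse testis by Nanopore direct RNA sequencing, in which a read is 1 RNA molecule. Read number and poly(A) tail length were the measurements. A transcript was a member when its mouse gene symbol began with Ddx, Dhx, Hnrnp, Srsf, Rbm or Ybx. This took 32 transcripts of 23 genes among the 2783 transcripts counted. They were 8 transcripts of 7 Ddx genes, 2 of 2 Dhx genes, 10 of 7 Hnrnp genes, 3 of 3 Srsf genes, 6 of 3 Ybx genes and 3 of 1 Rbm gene, Rbm3. The rule used symbols and no measured value, but it was chosen with earlier results of these data known. In GENCODE, 29 of the 32 were protein-coding transcripts, 2 were nonsense-mediated decay transcripts (1 each of Ddx5 and Hnrnpa2b1) and 1 was a retained-intron transcript of Ybx2.

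Testes came from adult males that were wild type (Tent5c wt/wt, called wt) or carried, on both copies of Tent5c, an allele whose protein is catalytically dead (Tent5c dcat/dcat, called dcat). TENT5C extends poly(A) tails in the cytoplasm, and the inactive allele was carried by germ cells and somatic cells alike. Each mouse received 1 injection of busulfan at 20 mg/kg, an alkylating agent toxic to dividing germ cells, or of its vehicle, and the testis was taken after 4 weeks. The 4 groups held 2 mice each, every mouse gave 1 library, and the replicate number names the multiplexed library in which 1 extract of each group was sequenced together.

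DEAD-box (Ddx) and DEAH-box (Dhx) helicases use ATP to unwind RNA or remodel RNA-protein complexes in splicing, export, translation and decay. The hnRNP and SR (Srsf) proteins bind nascent transcripts and guide splice site choice and export, and Y-box (Ybx) proteins coat mRNA in the cytoplasm. In the testis, germ cells make many mRNAs long before they are translated, and store them with germ-cell helicases such as DDX4 and DDX25 and with the Y-box proteins YBX2 and YBX3.

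Library totals here are sums over the 2783 transcripts of the deposited table, which left out transcripts with few reads (rule given below). They were thus smaller than the quality-checked read numbers in the paper's supplement. Totals ran from 29574 reads (dcat vehicle replicate 1) to 129074 reads (dcat vehicle replicate 2). A count of 0, which allows up to 3 reads, thus set a limit of 101 to 23.2 CPM (reads per 1000000 reads of this total). Shares, CPM and limits are all relative to these totals. Such limits and the read intervals below cover counting error only. Members held 5318 of 621202 reads. Their share was 1.05% in both wt vehicle libraries, 0.637% and 0.577% after busulfan in wt, 0.910% and 1.205% in the dcat vehicle libraries, and 0.699% and 0.714% after busulfan in dcat. The share was lower in each of the 4 busulfan libraries than in each of the 4 vehicle libraries. All 10 late spermatid markers of a fixed list were read (the protamines Prm1 and Prm2 among them), and they summed to 91939–115127 CPM over the 4 vehicle libraries, against 7888 and 10188 after busulfan in wt and 20461 and 37073 in dcat. Of 9 Leydig and 11 Sertoli markers, 8 and 7 were read. Leydig markers summed to 3711–6830 CPM in vehicle libraries and 24126–49235 after busulfan, and Sertoli markers to 3556–5850 and 22844–35412. In bulk RNA, fewer cells of a type and less RNA per cell cannot be told apart.

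**Figure D1:**
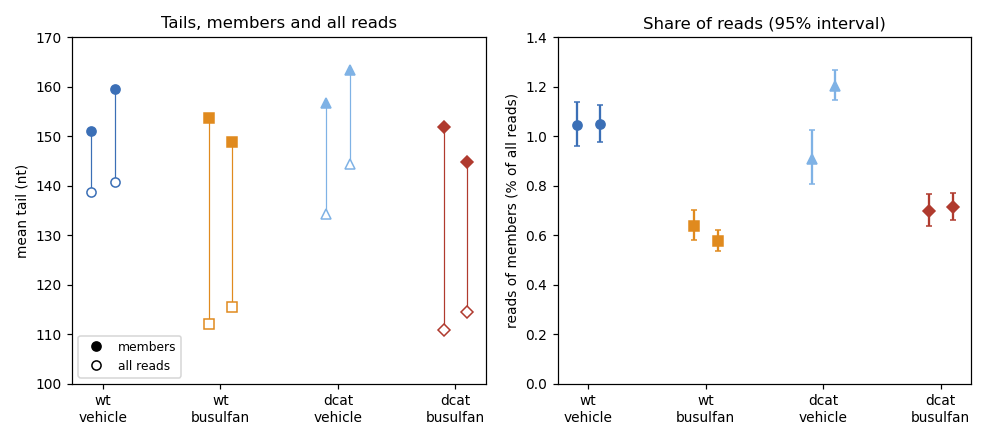
Left, mean poly(A) tail in nucleotides (nt) of the reads of the 32 member transcripts (filled) and of all reads (open) in each library. Right, percentage of a library's reads in the deposited table that came from members, with 95% Wilson intervals. Mean tails of all reads are near 112–115 nt in wt busulfan libraries against 139 and 141 nt in wt vehicle libraries. Those of members lie between 145 and 163 nt in all 8 libraries, but they pool families whose tails and read numbers differed in opposite directions.

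To show what the windows counted below look like, promoters of 3 germ-cell members that were lower after busulfan and of Ddx3x, which was higher, are printed here, as windows of 250 bases before to 50 after the annotated start (RefSeq, GRCm38.p6, printed 5′ to 3′ on the gene's strand). Capitals mark CCAAT or its reverse complement ATTGG, the core of the Y box from which the Ybx family takes its name, and TGACG or its reverse complement CGTCA, the core of the cAMP response element.
Ddx25, chr9:35558421-35558720, minus strand: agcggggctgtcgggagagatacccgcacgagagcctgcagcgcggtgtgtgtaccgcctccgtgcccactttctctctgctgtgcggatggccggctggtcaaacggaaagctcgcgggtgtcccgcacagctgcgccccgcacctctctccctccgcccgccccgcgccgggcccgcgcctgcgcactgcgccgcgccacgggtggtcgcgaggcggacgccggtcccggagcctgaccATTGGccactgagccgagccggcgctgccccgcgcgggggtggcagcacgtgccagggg
Ddx4, chr13:112652261-112652560, minus strand: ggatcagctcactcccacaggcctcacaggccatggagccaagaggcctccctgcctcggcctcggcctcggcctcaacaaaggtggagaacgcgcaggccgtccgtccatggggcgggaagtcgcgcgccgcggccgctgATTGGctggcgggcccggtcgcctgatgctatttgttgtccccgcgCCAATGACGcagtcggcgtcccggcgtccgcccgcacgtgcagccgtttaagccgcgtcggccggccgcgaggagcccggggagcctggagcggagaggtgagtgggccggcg
Ybx2, chr11:69935649-69935948, plus strand: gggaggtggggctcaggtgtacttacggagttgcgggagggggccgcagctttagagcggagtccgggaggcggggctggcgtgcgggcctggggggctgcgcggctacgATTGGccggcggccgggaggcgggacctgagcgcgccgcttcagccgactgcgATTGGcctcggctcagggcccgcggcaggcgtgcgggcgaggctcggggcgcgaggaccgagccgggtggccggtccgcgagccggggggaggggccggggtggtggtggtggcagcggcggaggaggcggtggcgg
Ddx3x, chrX:13280772-13281071, plus strand: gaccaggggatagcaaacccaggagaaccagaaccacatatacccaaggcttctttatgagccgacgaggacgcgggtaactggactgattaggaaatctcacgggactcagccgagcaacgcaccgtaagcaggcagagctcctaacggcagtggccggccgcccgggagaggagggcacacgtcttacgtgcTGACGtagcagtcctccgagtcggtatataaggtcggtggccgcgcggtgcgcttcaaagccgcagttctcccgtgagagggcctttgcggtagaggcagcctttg

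The 5-base CCAAT motif was found at −9 in Ddx25, at −109 and −63 in Ddx4 and at −140 and −87 in this window of Ybx2, counted from the start site, and not in this window of Ddx3x. TGACG was found at −59 in Ddx4, where it overlaps the second CCAAT by 1 base, and at −56 in Ddx3x. These 4 windows do not stand for a split by direction. A second Ybx2 window and those of Ddx20 and Ybx3, also lower after busulfan, held no CCAAT, while it was found 3 times in Hnrnpab, 2 times each in Hnrnpa3 and Hnrnpk and 1 time in Srsf3, all higher after busulfan in wt. Other windows went the other way: Ybx1, lower after busulfan, held CCAAT 3 times, and Srsf6, higher after busulfan, held none. Across members, 22 of 23 genes had a window in the table, 29 windows in all. CCAAT was in 16 of the 29 (55.2%, from 14 genes), against 37.4% of all 32851 windows, and TGACG was in 13 (44.8%, from 12 genes) against 20.8%. The 32851 windows are of all genes in the table, not only those read here, so the 2 shares come from unlike sets. The 2 windows of Hnrnpa2b1 overlap, and the same CCAAT and the same TGACG are counted in both. A letter match is a description and not a binding site.

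The first comparison asked how reads of members differed between busulfan and vehicle testes in wt mice. By edgeR's quasi-likelihood test, 9 of 32 member transcripts (28.1%) were lower after busulfan, from 6 genes, while 38.3% of all transcripts tested were lower. Another 11 (34.4%), from 9 genes, were higher, while 35.4% of all transcripts were higher. Both shares of members lay near or under the background. The lower ones were all 6 Ybx transcripts and 3 Ddx transcripts, and the higher ones came from the Hnrnp (5), Rbm (3), Srsf (2) and Ddx (1) families. The median log2 fold change was 0.43 over members and 0.09 over all transcripts. A transcript was in the deposited tables when some group had 10 or more reads in each of its libraries. Of the members, 19 met that rule through busulfan groups alone and 10 through vehicle groups alone, and for these the filter favoured a difference in that direction. Of the 19, 11 were higher in wt, 9 were higher and 1 lower in dcat, and the others were not called. Of the 10, 7 were lower in wt, 6 were lower in dcat, and the others were not called. All higher calls of members in both genotypes came from the 19. The lower calls in wt came from the 10 for Ddx25, Ddx4, Ddx20, the 3 Ybx2 transcripts and the short form of Ybx3, and the remaining 2, Ybx1 and the long form of Ybx3, met the rule in both treatments.

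Ddx25, a helicase of meiotic and haploid germ cells that takes part in export and storage of mRNA, had 45 and 47 reads in the wt vehicle libraries and 2 and 6 after busulfan, or 872 and 672 against 26.2 and 56.5 TMM-scaled CPM (CPM adjusted for library composition). In dcat it had 36 and 147 reads after vehicle and 0 and 16 after busulfan, where 0 of 61482 reads allows up to 48.8 CPM. The busulfan libraries lay far below the vehicle libraries in both genotypes, and the dcat busulfan replicate 2 held more than either wt busulfan library. The log2 fold change was −4.09 (SE 0.64, adjusted p = 7.2e-06 in edgeR) in wt and −3.56 (SE 0.56, adjusted p = 5.66e-05) in dcat. Most dcat calls of members were lost without dcat vehicle replicate 2, and those that held are named with the dcat counts, Ddx25 among them.

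Ddx4, the germ-cell helicase known as Vasa, had 10 and 23 reads after vehicle and 3 and 5 after busulfan in wt, a log2 fold change of −2.57 (SE 0.61, adjusted p = 6.15e-04 in edgeR). In dcat its counts were 7 and 33 against 4 and 15, and the groups did not overlap once scaled (232 and 264 against 64.2 and 163 CPM), but the change of −1.07 (SE 0.52, adjusted p = 0.0773) did not pass. Ddx20, the Gemin3 helicase of the SMN complex that assembles spliceosomal particles, had 16 and 24 reads after vehicle and 4 and 3 after busulfan in wt. Its log2 fold change was −3.03 (SE 0.63, adjusted p = 1.7e-04) in wt and −1.73 (SE 0.56, adjusted p = 0.00998) in dcat. Of 8 germ-cell genes listed under the member prefixes, Ddx4, Ddx25 and Ybx2 were read, and the other 5 (Ddx43, Rbmxl2, Rbm44, Rbm46 and Rbmy) were not among the transcripts.

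Y-box genes showed the lowest family median, −4.12 in wt and −1.95 in dcat (log2 fold change over 6 transcripts). Ybx2, the germ-cell Y-box protein MSY2 that stabilizes stored mRNAs, was read as 3 transcripts. Their last exons start at the same base, so reads could be split among them. The one with most reads (ENSMUST00000018698) had 55 and 47 reads after vehicle and 3 and 4 after busulfan in wt, and 15 and 122 against 3 and 22 in dcat. Its log2 fold change was −4.43 (SE 0.61, adjusted p = 1.84e-06 in edgeR) in wt and −2.33 (SE 0.50, adjusted p = 6.44e-04) in dcat. A second (ENSMUST00000108601), starting further downstream, had 27 and 24 reads against 3 and 0 in wt, a read ratio of 25.1 (95% exact interval 8.12–126) in favour of vehicle. In dcat that transcript had 6 and 56 against 5 and 23 reads, its scaled groups overlapped, and the change of −1.05 (adjusted p = 0.0992) did not pass. The retained-intron transcript fell by 2.40 (SE 0.69, adjusted p = 0.00328) in wt, a call lost without wt vehicle replicate 1, and by 2.35 (SE 0.70, adjusted p = 0.00601) in dcat.

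Ybx3 (MSY4, a Y-box protein that binds protamine mRNA) was read as a long and a short splice form, with 10 and 9 exons, that end at the same base. Reads could be split between these forms, so counts and tails of a single form are uncertain. The long form (ENSMUST00000032309) had 71 and 113 reads after vehicle and 3 and 9 after busulfan in wt, and 16 and 189 against 10 and 50 in dcat. Its log2 fold change was −4.50 (SE 0.58, adjusted p = 8.09e-07 in edgeR) in wt and −1.58 (SE 0.47, adjusted p = 0.00621) in dcat, where the scaled groups overlapped (531 and 1510 against 161 and 543 CPM). The short form (ENSMUST00000087865) had 55 and 77 against 5 and 9 reads in wt and 36 and 172 against 3 and 20 in dcat. It fell by 3.80 (SE 0.50, adjusted p = 1.02e-06) and by 3.17 (SE 0.46, adjusted p = 2.66e-05) on the log2 scale, with separate groups in both genotypes.

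Ybx1, the Y-box protein made in most cells, had 84 and 129 reads after vehicle and 32 and 51 after busulfan in wt, and 37 and 269 against 35 and 84 in dcat. Scaled, the wt values were 1627 and 1845 against 419 and 480 CPM, and busulfan libraries lay below vehicle libraries in both genotypes. The log2 fold change was −1.94 (SE 0.37, adjusted p = 7.02e-05 in edgeR) in wt and −1.22 (SE 0.36, adjusted p = 0.00591) in dcat. The summed late spermatid markers were low in the same libraries as the Ybx and germ-cell Ddx members, with the values given above. Round spermatid markers summed to 2207 and 2052 CPM after vehicle and 15.1 and 121 after busulfan in wt. Sycp3, the only spermatocyte marker read, had 315 and 208 against 90.8 and 113 in wt, and 135 and 232 against 97.6 and 228 in dcat, which overlapped. Uchl1, the only spermatogonia marker read, was higher after busulfan in wt (39.4 and 69.3 against 273 and 165). The part of any of these cells in the differences was not tested.

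**Figure D2:**
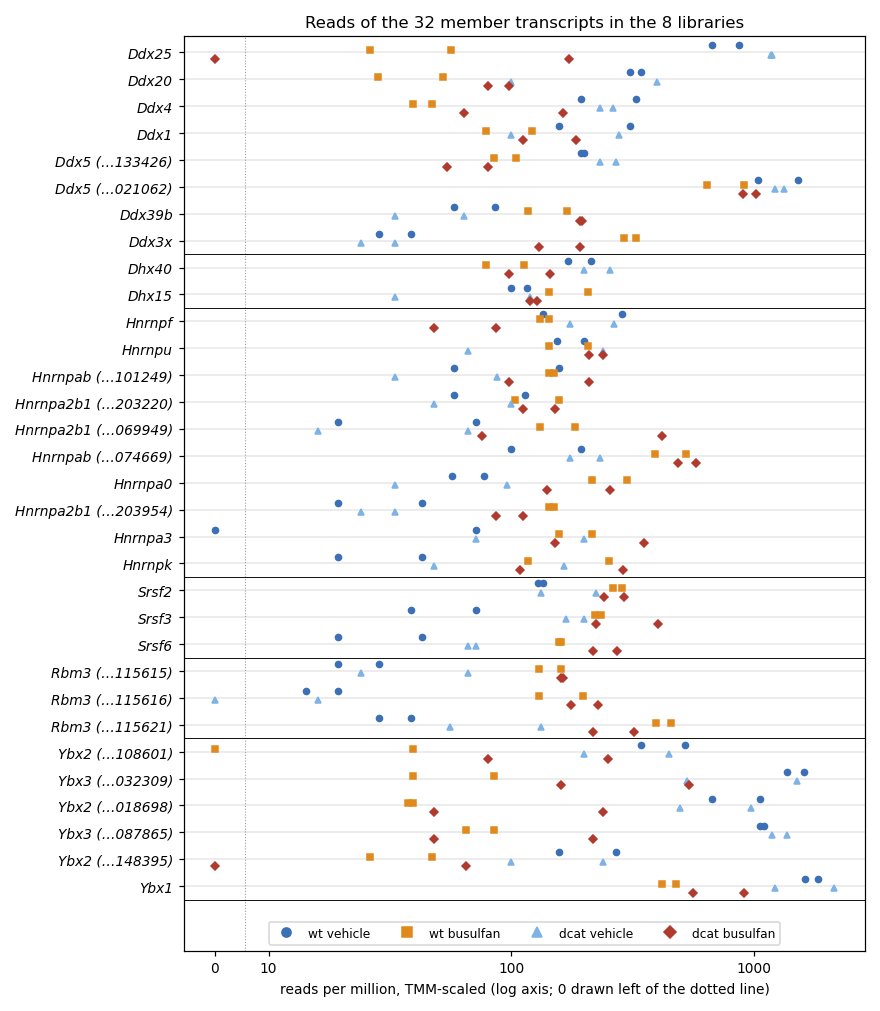
Each of the 32 member transcripts (rows, by family, with the last 6 digits of the transcript identifier where a gene has several) in the 8 libraries, as TMM-scaled CPM on a log axis with 0 drawn at the left. The wt busulfan squares of Ybx2, Ybx3 and Ddx25 sit under 100 while their wt vehicle circles reach from 157 to 1616, and the order is turned for Ddx3x and Rbm3.

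Ddx5 and Ddx3x are helicases made in most cells. Ddx5 (p68), which acts in splicing and transcription (chr11:106780355-106788532, minus strand, 13 exons), had 54 and 107 reads after vehicle and 49 and 97 after busulfan in wt, and 37 and 167 against 64 and 83 in dcat. Scaled, this was 1046 and 1530 against 641 and 913 CPM in wt and 1228 and 1334 against 1028 and 902 in dcat. Busulfan libraries were the lower ones in each genotype without overlap, but neither change passed the test: the log2 fold change was −0.73 (SE 0.35, adjusted p = 0.0607 in edgeR) in wt and −0.42 (SE 0.35, adjusted p = 0.291) in dcat. The nonsense-mediated decay transcript of Ddx5 had 10 and 14 against 8 and 9 reads in wt, where its change of −1.06 (adjusted p = 0.0693) did not pass, and 7 and 34 against 5 and 5 in dcat, where it fell by 1.97 (SE 0.54, adjusted p = 0.00378). With the reads of both transcripts summed, the Ddx5 change in dcat was −0.62 (adjusted p = 0.0917).

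Ddx3x, a helicase of translation initiation (chrX:13280970-13294052, plus strand, 17 exons), had 2 and 2 reads after vehicle and 25 and 31 after busulfan in wt. In dcat it had 1 and 3 reads after vehicle and 12 and 12 after busulfan. Every busulfan library held more than every vehicle library. Against totals, the read ratio of busulfan to vehicle was 9.48 (95% exact interval 3.50–36.0; adjusted p = 1.0e-04 in edgeR) in wt and 6.02 (2.07–23.9; adjusted p = 0.00407) in dcat. The dcat call was lost under DESeq2 and without dcat vehicle replicate 2 (adjusted p up to 0.145 over the alternatives). Ddx3x has close copies elsewhere in the genome, Ddx3y and D1Pas1, so the assignment of its reads is uncertain. Ddx39b, a helicase of splicing and mRNA export, had 3 and 6 against 9 and 18 reads in wt (log2 fold change 0.97, adjusted p = 0.132) and 1 and 8 against 12 and 18 in dcat, where it rose by 1.74 (SE 0.57, adjusted p = 0.0117), a call lost under the same alternatives.

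Rbm3, a cold-inducible RNA-binding protein encoded on the X chromosome, was read as 3 transcripts that overlap almost entirely, so reads could be split among them. The one with most reads had 2 and 2 reads after vehicle and 35 and 42 after busulfan in wt, and 4 and 7 against 20 and 20 in dcat. The read ratio in wt was 13.0 (95% exact interval 4.89–49.1; adjusted p = 2.6e-05 in edgeR), and the log2 fold change in dcat was 1.80 (SE 0.57, adjusted p = 0.00944). The other two had read ratios of 10.5 (2.67–90.5) and 6.09 (1.88–31.4) in wt and 16.1 (4.09–138) and 5.01 (1.89–16.8) in dcat, and all passed the test. Summed over the gene, the log2 fold change was 3.37 (adjusted p = 2.43e-06) in wt and 2.31 (adjusted p = 2.26e-04) in dcat.

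Of the 3 Srsf transcripts, 2 rose in wt and 1 in dcat, while 35.4% of all transcripts rose in wt and 31.3% in dcat. All 3 met the rule of the deposited tables through busulfan groups alone, which favoured a rise. SRSF2, SRSF3 and SRSF6 bind exonic enhancers and help define exons. Srsf6 had 1 and 3 reads after vehicle and 12 and 17 after busulfan in wt, a read ratio of 4.91 (95% exact interval 1.72–19.2; adjusted p = 0.00563 in edgeR). In dcat its counts were 2 and 9 against 17 and 20, a log2 fold change of 1.75 (SE 0.54, adjusted p = 0.00753). Srsf3 had 2 and 5 against 17 and 25 reads in wt, where it rose by 1.97 (SE 0.61, adjusted p = 0.00558), and 6 and 21 against 14 and 37 in dcat, where the change of 0.86 (adjusted p = 0.119) did not pass. Srsf2 was above its vehicle level in all busulfan libraries, with 7 and 9 against 22 and 28 reads in wt, but its log2 fold changes of 1.05 (adjusted p = 0.0604) and 0.45 (adjusted p = 0.407) did not pass.

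Of the 10 Hnrnp transcripts, 5 rose and none fell in wt, and 3 rose and 1 fell in dcat. Over all transcripts, 35.4% rose and 38.3% fell in wt, and 31.3% rose and 31.4% fell in dcat. The family medians were 1.66 in wt and 1.22 in dcat on the log2 scale. All 10 Hnrnp transcripts met the rule of the deposited tables through busulfan groups alone, which favoured a rise. Hnrnpab, which binds AU-rich mRNA, was represented best by a transcript with 10 and 7 reads after vehicle and 30 and 56 after busulfan in wt, and 7 and 22 against 36 and 45 in dcat. That transcript rose by 1.69 (SE 0.48, adjusted p = 0.00278 in edgeR) in wt and by 1.46 (SE 0.46, adjusted p = 0.00846) in dcat, with no overlap. Hnrnpk, a poly(C)-binding protein, had 1 and 3 against 9 and 27 reads in wt, a read ratio of 6.09 (95% exact interval 2.18–23.6; adjusted p = 0.00622), but without wt busulfan replicate 2 its call was lost. Hnrnpa0 had 4 and 4 against 23 and 23 reads and rose by 1.92 (SE 0.59, adjusted p = 0.00555) in wt, whereas in dcat the change of 1.23 (adjusted p = 0.0665) did not pass. Hnrnpa3 had 0 and 5 against 12 and 23 reads in wt and rose by 2.18 (SE 0.77, adjusted p = 0.0138), a call lost without wt busulfan replicate 2 and without wt vehicle replicate 1. Hnrnpu, a nuclear scaffold protein, had a log2 fold change of −0.01 (SE 0.52) in wt and 0.25 (SE 0.50) in dcat. Outside these families, the 2 Dhx transcripts did not pass in either genotype: Dhx40 had a log2 fold change of −0.95 (adjusted p = 0.110) in wt and Dhx15, which takes spliceosomes apart, 0.73 (adjusted p = 0.225).

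In dcat, 9 members (28.1%) from 7 genes were lower after busulfan while 31.4% of all transcripts were, and 9 (28.1%) from 6 genes were higher while 31.3% of all were. Hnrnpa2b1, a reader of RNA sorting signals, gave 2 of the higher ones. Its first transcript had 2 and 2 reads after vehicle and 26 and 7 after busulfan (read ratio 8.27, 95% exact interval 2.94–32.2; adjusted p = 0.00406 in edgeR) and its nonsense-mediated decay transcript 1 and 3 against 7 and 8 (3.76, 1.198–15.6; adjusted p = 0.0296). Hnrnpf, a G-tract binding splicing factor, was the only Hnrnp member that fell, with 8 and 22 against 3 and 8 reads and a change of −1.49 (SE 0.59, adjusted p = 0.0315). These dcat calls leaned on 1 deep library. Without dcat vehicle replicate 2, 2 members were called lower, Ddx25 and the short form of Ybx3, and 1 higher, an Rbm3 transcript, so every other dcat call of a read difference given here was lost. Read differences of Hnrnpf, Ybx1, the long form of Ybx3 and both Hnrnpa2b1 transcripts also lost their calls without dcat busulfan replicate 1.

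**Figure D3:**
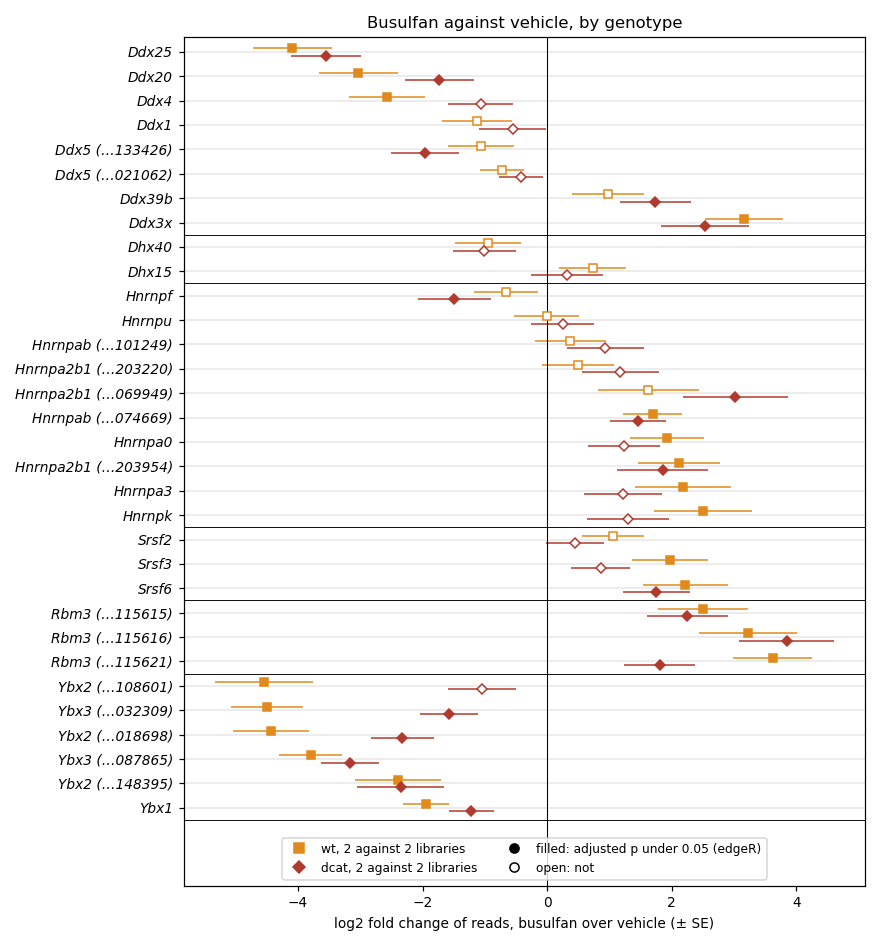
Fitted log2 fold change of reads, busulfan over vehicle (points, with standard errors as bars), of the 32 member transcripts in wt (squares) and dcat (diamonds), 2 against 2 libraries each. Filled symbols have an adjusted p under 0.05 in edgeR. Ybx transcripts lie left of 0 and Rbm3 transcripts right of 0 in both genotypes, and the long form of Ybx3 lies at −4.50 in wt and −1.58 in dcat.

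Tails were read from the same molecules. Since tails are added after cleavage at the 3′ end, the last 30 bases of the annotated transcripts whose tails are described most are printed (GENCODE vM21, GRCm38, 5′ to 3′ on the transcript's strand), with capitals for the polyadenylation signal AATAAA or its variant ATTAAA.
Ddx5, chr11:106780355-106780384, minus strand: cttaactAATAAAtgtgatttttctcccca
Ddx5 nonsense-mediated decay transcript, chr11:106781548-106781577, minus strand: ggccttccAATAAAagatatttgaagactg
Ybx1, chr4:119277981-119278010, minus strand: gcacctgttAATAAAggtcttaaataataa
Ybx3, both forms, chr6:131364855-131364884, minus strand: caaaAATAAAatttttaccttcaaaggaaa
Rbm3, chrX:8142359-8142388, minus strand: ATTAAAagatgaaacctgaacacaaatcaa
Ybx2, chr11:69941576-69941605, plus strand: cagtaaaaacaaaagcaggctttcttgttg

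These bases lie in the last exon of each transcript. The Ybx2 end holds neither hexamer. Within the last 50 bases, AATAAA was found on the transcript's strand in 19 of 32 members and in 65.2% of 2738 transcripts, and ATTAAA in 9 members and in 17.1%. Either was found in 27 members and in 79.1% of transcripts. The 5 members without one were Ddx39b, Hnrnpk and the 3 Ybx2 transcripts.

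Over all their reads, members had a mean tail of 151 and 160 nt in the wt vehicle libraries and 154 and 149 nt after busulfan. In dcat these means were 157 and 163 nt, then 152 and 145 nt. All reads of these libraries averaged 139 and 141, 112 and 115, 134 and 144, and 111 and 115 nt. Short tails of 30 to 120 nt made up 29.0% and 26.7% of member reads in wt vehicle and 37.1% and 39.5% in wt busulfan libraries, against 36.0% and 35.1%, then 58.7% and 57.0%, of all reads. The busulfan libraries thus had more short tails than the vehicle libraries, among all reads and among members. Per transcript with 10 or more reads in each library of a group, the median tail was 154 nt over 13 members and 148 nt over all in wt vehicle, and 146 nt over 19 members and 120 nt over all in wt busulfan. The members with enough reads were not the same ones in both groups, so these medians do not follow single transcripts.

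Only Ddx5 and Ybx1 had at least 10 reads in all 4 wt libraries, and so entered limma's test of mean tails, on 527 transcripts. Of these transcripts, 0.569% had longer and 39.1% had shorter tails after busulfan, with a median difference of −19.9 nt. Ybx1 was among the shorter and Ddx5 among the 3 longer ones.

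Ddx5 tails averaged 143 and 154 nt in the wt vehicle libraries and 196 and 164 nt in the wt busulfan libraries, and 157 and 154 nt against 169 and 163 nt in dcat. Every busulfan library lay above every vehicle library, and wt busulfan replicate 1 was the longest. Reads with tails over 200 nt were 9 of 54 (16.7%, Wilson 95% interval 9.02–28.7%) and 29 of 107 (27.1%, 19.6–36.2%) after vehicle in wt and 25 of 49 (51.0%, 37.5–64.4%) and 39 of 97 (40.2%, 31.0–50.2%) after busulfan. In dcat they were 14 of 37 (37.8%) and 34 of 167 (20.4%) against 21 of 64 (32.8%) and 25 of 83 (30.1%), which overlapped. The group means were 149 ± 7.8 nt and 180 ± 22.6 nt in wt (SD, n = 2 each), a difference of 31.0 nt (SE 9.80, adjusted p = 0.0268 in limma).

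That call was lost without wt busulfan replicate 1 (15.0 nt, adjusted p = 0.265 in limma), without wt vehicle replicate 1 (25.5 nt, 0.160) or replicate 2 (36.5 nt, 0.0924), and with median in place of mean tails (39.0 nt, 0.181). In dcat the Ddx5 difference was 10.6 nt (SE 8.77, adjusted p = 0.407). When each library was centred on its median tail, so that the shortening common to most transcripts was taken out, Ddx5 was longer by 54.2 nt (adjusted p = 0.00583) in wt and by 33.4 nt (adjusted p = 0.0116) in dcat. Under that centring, 58.0% of the called transcripts in wt were longer, against 1.435% without it. The nonsense-mediated decay transcript of Ddx5 averaged 150 and 175 nt after vehicle and 245 and 213 nt after busulfan in wt, from 10, 14, 8 and 9 reads, and 165 and 167 nt against 226 and 218 nt in dcat, from 7, 34, 5 and 5 reads. It had too few reads to be tested, and its busulfan libraries lay above its vehicle libraries in both genotypes.

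Ybx1 tails averaged 151 and 157 nt after vehicle and 123 and 116 nt after busulfan in wt, and 170 and 163 nt against 111 and 116 nt in dcat. The groups were separate in both genotypes. The difference was −34.2 nt (SE 7.13, adjusted p = 0.00383 in limma) in wt and −53.0 nt (SE 8.14, adjusted p = 0.00460) in dcat. Short tails of 30 to 120 nt were on 27.4% and 27.9% of Ybx1 reads after vehicle and 50% and 58.8% after busulfan in wt, and on 13.5% and 23.4% against 60% and 54.8% in dcat. With centred libraries the difference in wt was −11.0 nt and no longer passed (adjusted p = 0.309), and in dcat it was −30.2 nt and passed (adjusted p = 0.0179).

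**Figure D4:**
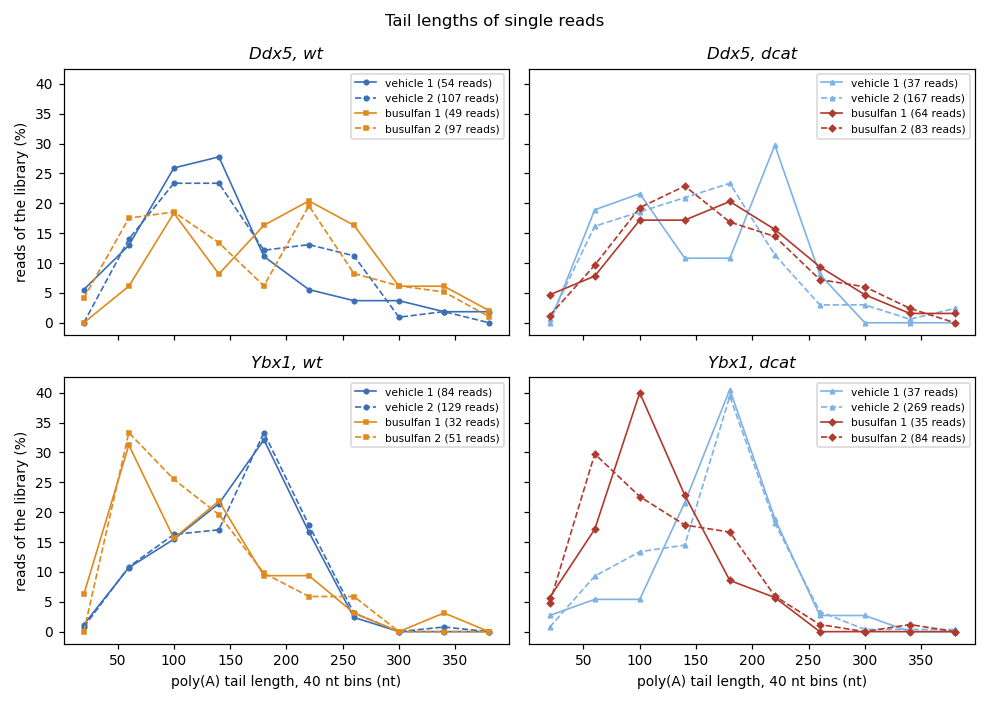
Share of a library's reads of Ddx5 (top) and Ybx1 (bottom) in 40 nt bins of tail length, for wt (left) and dcat (right), with vehicle and busulfan libraries as separate lines (solid, replicate 1; dashed, replicate 2) and their read numbers in the legend. Ybx1 peaks near 180 nt after vehicle and at or under 100 nt after busulfan in both genotypes, and Ddx5 reads over 200 nt are 51.0% and 40.2% of the wt busulfan libraries against 16.7% and 27.1% of the wt vehicle libraries.

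In dcat, 3 members were tested among 441 transcripts, of which 0.0% were longer and 19.5% shorter after busulfan, with a median difference of −17.2 nt. The third was the long form of Ybx3, with mean tails of 207 and 183 nt after vehicle and 161 and 138 nt after busulfan, from 16, 189, 10 and 50 reads. It was shorter by 45.2 nt (SE 12.3, adjusted p = 0.0308 in limma) with separate groups. The call was lost with centred libraries (−22.4 nt, adjusted p = 0.143), with medians (−35.9 nt, 0.114), without dcat busulfan replicate 2 (−33.7 nt, 0.0736) and without dcat vehicle replicate 1 (−33.4 nt, 0.118). In wt the same form averaged 157 and 185 nt after vehicle, and 207 and 146 nt from only 3 and 9 reads after busulfan.

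Among members with 10 or more reads in each library, the longest tails in the wt vehicle group were on the retained-intron transcript of Ybx2 (184 and 184 nt), the short form of Ybx3 (176 and 174 nt), the long form of Ybx3, and the second Ybx2 transcript (181 and 153 nt). The shortest were on Ddx4 (101 and 156 nt), Ddx20 (113 and 146 nt), Ddx1 (140 and 142 nt), a helicase of tRNA ligation and RNA transport, and Ddx25 (146 and 143 nt). The wide gaps between the 2 libraries of Ddx4 and Ddx20 rest on 10 to 24 reads each. Germ-cell members stood at both ends of this order. It held only 13 members, several of them transcripts of the same gene, so that placing says little.

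In the wt busulfan group the longest tails were on Srsf2 (206 and 216 nt), Srsf6 (190 and 219 nt), Dhx15 (197 and 191 nt) and Ddx5. The shortest were on Rbm3, whose most-read transcript averaged 106 and 105 nt. Its other transcripts averaged 112 and 125 nt and 120 and 130 nt, with Ybx1 (123 and 116 nt) between these. Tails of the SR proteins Srsf2 and Srsf6 were also long in dcat busulfan libraries, at 179 and 192 nt and at 201 and 204 nt. Srsf6 and Rbm3 stood at opposite ends of the order. Both rose in reads after busulfan, and both met the rule of the deposited tables through busulfan groups alone. Over all transcripts the 10th to 90th percentile of the wt busulfan group was 91.9 to 153 nt. Ddx3x lay above it, at 168 and 172 nt.

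**Figure D5:**
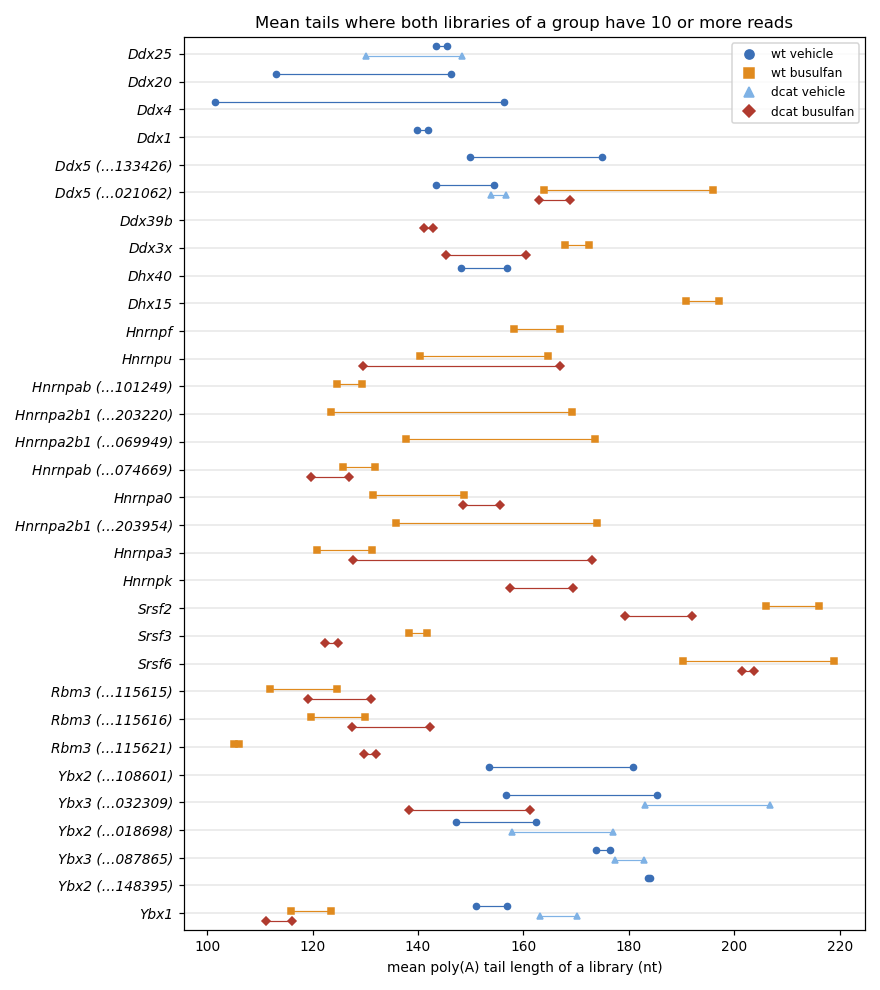
Mean poly(A) tail in nt of each member transcript in the libraries of a group, joined by a line, shown where each library of that group had 10 or more reads. In the wt busulfan group (squares) values reach from 105 and 106 nt for Rbm3 to 206 and 216 nt for Srsf2. Ddx5 and Ybx1 are drawn in all 4 groups.

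Between genotypes after vehicle, no member passed the test of reads. In edgeR 0 of 32 were called higher or lower, and 0.0% of all transcripts were in either direction. At an unadjusted p under 0.05 there was 1 higher member, Srsf3, with 2 and 5 reads in wt and 6 and 21 in dcat, and none lower, and DESeq2 called 0. Levels of Ddx5 lay within 1046 and 1530 CPM in wt and 1228 and 1334 in dcat, a log2 fold change of −0.01 (SE 0.35). Of 720 transcripts tested for tails by limma, 6 were members and 0 of these were called, against 0.0% longer and 0.139% shorter over all. The long form of Ybx3 was 24.0 nt longer in dcat (SE 8.98, adjusted p = 0.989), and the only one of the 6 with an unadjusted p under 0.05. This difference depended on which vehicle library was left out. It was 9.70 nt without wt vehicle replicate 1 and 38.2 nt without wt vehicle replicate 2. Leaving out dcat vehicle replicate 1 gave 12.1 nt, and leaving out dcat vehicle replicate 2 gave 35.8 nt. Each of these fits left 1 library in a group, and the last kept only 16 dcat reads of this form. For the short form of Ybx3, mean tails after vehicle were 175 nt (wt) and 180 nt (dcat). Ddx5 differed by 6.34 nt (SE 7.39), Ybx1 by 12.7 nt (SE 6.36) and Ddx25 by −5.27 nt (SE 8.53).

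After busulfan, 2 of 32 members were higher in dcat than in wt and 0 lower by edgeR, against 5.39% and 0.431% of all transcripts. At an unadjusted p under 0.05 there were 4 higher and 1 lower. The long form of Ybx3 had 3 and 9 reads in wt and 10 and 50 in dcat, a log2 fold change of 2.47 (SE 0.62, adjusted p = 0.0215). The second Ybx2 transcript had 3 and 0 reads in wt and 5 and 23 in dcat, a read ratio of 10.7 (95% exact interval 3.31–55.0; adjusted p = 0.0269). Both were higher in each dcat library than in each wt library. Both lost their calls without dcat busulfan replicate 2, without either wt busulfan library and without either wt vehicle library. The Ybx2 call was also lost under DESeq2 and with transcripts summed per gene. No other transcript of these genes was called. Since reads could be split among the transcripts of each gene, a contrast between them is uncertain. Scaled, the short form of Ybx3 was at 65.4 and 84.7 CPM in wt and 48.2 and 217 in dcat, which overlapped. The most-read Ybx2 transcript was higher in dcat by 1.97 on the log2 scale (SE 0.72, adjusted p = 0.106 in edgeR). The retained-intron transcript of Ybx2 was at 26.2 and 47.1 CPM in wt and 0 and 65.2 in dcat. Late spermatid markers were at 20461 and 37073 CPM in these dcat libraries and 7888 and 10188 in the wt ones, and the 6 round spermatid markers read, of 8 listed, at 211 and 465 against 15.1 and 121. The part of these cells in the 2 calls was not tested.

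Whether the response to busulfan differed by genotype was asked with an interaction term. In edgeR 0 members were called, with 3 higher and 0 lower at an unadjusted p under 0.05, against 0.323% of all transcripts called higher and 0.0% lower, and DESeq2 called 0. The nearest were the long form of Ybx3 (2.92 on the log2 scale, SE 0.76, adjusted p = 0.0535) and the second Ybx2 transcript (3.50, SE 1.03, adjusted p = 0.0636). With the replicate block, which uses the pairing of libraries by multiplexed run, both passed, at 3.11 (adjusted p = 0.00697) and 3.56 (adjusted p = 0.0314). Without dcat busulfan replicate 2 they were 1.72 (adjusted p = 0.687) and 2.38 (adjusted p = 0.733). Ddx3x (−0.63, adjusted p = 0.885) and Ddx5 (0.31, adjusted p = 0.862) did not pass.

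Tails after busulfan were tested between genotypes by limma for 13 members of 1188 transcripts, and 0 were called, while 0.337% of all were longer and 1.01% shorter in dcat. The member with the lowest unadjusted p, 0.0337, was the most-read Rbm3 transcript, at 106 and 105 nt in wt and 130 and 132 nt in dcat, a difference of 25.3 nt (SE 10.9, adjusted p = 0.560). Its groups were separate, and it was the only one under 0.05 before adjustment. Srsf2 was 25.5 nt shorter in dcat (SE 12.6, adjusted p = 0.622) and Ddx3x 17.2 nt shorter (SE 13.3, adjusted p = 0.833), neither of which passed. In the interaction, 2 of 339 transcripts tested were members and 0 were called, against 0.295% longer and 0.59% shorter over all, and 0 had an unadjusted p under 0.05. The terms were −20.4 nt (SE 14.2, adjusted p = 0.775) for Ddx5 and −18.7 nt (SE 9.40, adjusted p = 0.633) for Ybx1.

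Other genes of RNA metabolism outside the prefixes were read from 3 lists. Among 51 splicing and nuclear RNA-binding genes, 6 were read as 7 transcripts, of which 1 rose and 0 fell in wt (median 0.76 on the log2 scale) and 2 rose in dcat (median 0.83). Of 30 cytoplasmic RNA-binding and helicase genes, 8 were read as 10 transcripts, and 5 rose and 2 fell in wt (median 1.13) while 3 rose and 2 fell in dcat (median 0.74). Pabpc1, the cytoplasmic poly(A)-binding protein, fell by 2.41 (SE 0.39, adjusted p = 1.16e-05 in edgeR) in wt and by 1.89 (SE 0.38, adjusted p = 3.87e-04) in dcat. Pabpc1 tails changed by −10.8 nt in wt (adjusted p = 0.277 in limma). Strap, the other transcript of this list tested for tails, was shorter by 42.3 nt in wt (SE 12.7, adjusted p = 0.0214 in limma), while 39.1% of all transcripts tested were shorter. In dcat neither passed. Of 30 further germ-cell genes, 9 were read as 10 transcripts, and all 10 fell in both wt (median −4.24) and dcat (median −2.31), as the piRNA factors Gtsf1l (−5.51, adjusted p = 1.11e-07) and Mael (−3.52, adjusted p = 3.05e-06) did in wt. The Ybx members and Ddx25 lay in the same direction as these genes, with medians over all transcripts of 0.09 in wt and 0.14 in dcat. Over all transcripts, 35.4% rose and 38.3% fell in wt, and 31.3% rose and 31.4% fell in dcat. Listed genes also met the rule of the deposited tables. It favoured a fall where only vehicle groups met it, and a rise where only busulfan groups did. The lists were chosen with earlier results of these data known, so the shared direction is only a description.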

How the data were processed

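Whole-testis poly(A) RNA was sequenced on Nanopore R9 flow cells. Per the labels and the study's methods, the authors used Guppy for basecalling, minimap2 (2.20-r1061 in the submitters' processing notes) for alignment to GENCODE transcripts of GRCm38 (mm10), Deeplexicon for barcodes and Nanopolish for tails, with reads of doubtful barcode or tail removed. The deposited table held raw read counts per transcript, not normalized. The deposited tail table held 1 tail length in nt per read, for 621202 reads, and 0 transcripts had a count that differed from their number of reads. Deposited fold changes and p-values of the authors were not used.

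Counts were fitted with edgeR 4.0.16 (R 4.3.3, TMM, quasi-likelihood F test, 8 libraries as 4 groups, every transcript). Mean tails per transcript and library were fitted with limma 3.58.1 (eBayes, trend on the log2 of mean reads) where every library of the fit had at least 10 reads. P-values were two-sided and adjusted by Benjamini-Hochberg over all transcripts tested, at 0.05. Replicates were single mice, 2 per group, and an exact permutation test of 2 against 2 cannot go below p = 0.333. Where each library of a group had at most 3 reads, a ratio of reads to library totals with an exact conditional 95% interval is given in place of a fold change. Both steps were also run on simulated data with planted changes. The simulation had no effect of the multiplexed run, and its tails were set to vary less between libraries than those of Ddx5 in wt busulfan (SD 22.6 nt). It thus does not show how the tests behave at such spread.

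The replicate number marks, per the labels, 1 of 2 multiplexed libraries and so pairs the samples. Deviations of same-numbered libraries correlated at −0.16 to 0.31 for counts and 0.0061 to 0.062 for tails. Alternatives were RLE scaling, DESeq2 1.42.0, filterByExpr, the replicate block, sums per gene, the 4 libraries of a contrast alone and each library left out, and for tails the median, the log2 scale, centring, no trend, a minimum of 20 reads and pooling per gene.

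Named were Ddx5, Ddx3x, germ-cell members, up to 6 called transcripts per direction and contrast with separate groups, every tail call, the 4 longest and 4 shortest tails of the wt groups, the most-read members of each family and the most-read genes of other lists. Members and lists were chosen with earlier results of these data known.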

Additional observations from a re-analysis of the deposited data

How the results depend on the processing

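Of 40 read-count calls of members, 16 held under every alternative run, and of 4 tail calls 1 did, that of Ybx1 in dcat; none reversed. Under DESeq2, members called higher after busulfan were 5 in place of 11 in wt and 2 in place of 9 in dcat, and 1 in place of 2 was higher in dcat than in wt after busulfan; sums per gene also gave 1 there. The 6 wt calls lost were Hnrnpa0, Hnrnpa3, Hnrnpk, Srsf6 and 1 transcript each of Hnrnpa2b1 and Rbm3. The 7 higher dcat calls lost were Ddx3x, Ddx39b, Hnrnpab, Srsf6, the Hnrnpa2b1 nonsense-mediated decay transcript and 2 Rbm3 transcripts, and Ddx20 and Hnrnpf lost their lower calls. Leaving out 1 library gave 9 to 13 higher and 8 to 10 lower in wt, 1 to 12 higher and 2 to 11 lower in dcat, 0 to 4 higher in dcat than in wt after busulfan, and 0 to 3 in the interaction. The interaction had 1 member higher with RLE scaling, 1 with filterByExpr (the long form of Ybx3 in both) and 2 with the replicate block. The block lost 1 further call, the Hnrnpa2b1 nonsense-mediated decay transcript in dcat (adjusted p = 0.0607 in edgeR), and changed no other. For tails, members called longer in wt were 0 in place of 1 on the log2 scale, with medians and without a trend, and 0 to 1 with 1 library left out; members called shorter in wt were 0 in place of 1 with centred libraries. In dcat, centring gave 1 longer in place of 0, and 1 shorter in place of 2 was called with centring, log2, medians, 20 reads (which removes Ybx3) or no trend, and 1 to 2 with 1 library left out. After vehicle, dcat against wt gave 0 to 1 longer with 1 library left out. The causes were not tested. With RLE scaling the median change over all transcripts became −0.03 in wt (0.09 with TMM) and −0.08 in dcat (0.14 with TMM). With 2 libraries a group and few reads for most members, small changes were not detectable, and most members could not enter a tail test.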
